A study of Rattus norvegicus with 58 samples.

Results

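The livers described here are those of heterogeneous stock (HS) rats, outbred animals whose genomes mix several inbred founder strains, at the extremes of the transcript Nr1d1. They were chosen by the measured level of that gene alone: all 46 HS arrays were ranked by the log2 value of the only probe set with Nr1d1 as its single symbol, and the 12 highest were compared with the 12 lowest, which makes 24 of the 58 arrays of the study. All rats were male, 17 weeks old, kept 2 per cage with free access to food, then fasted overnight and decapitated, and the livers went straight into liquid nitrogen. Of the HS rats, 23 had normal glucose tolerance and 23 were glucose-intolerant, and the other 12 arrays came from 6 inbred strains, 2 arrays each. Each array holds the amplified and biotin-labelled RNA of 1 liver. The sources used here do not give the hour of day at which a rat was killed, nor scan dates, cages or families.

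Nr1d1 encodes REV-ERBα, a nuclear receptor that represses transcription and is itself a part of the circadian clock. In the core loop of the clock, the proteins BMAL1 and CLOCK (or NPAS2) bind E-boxes and switch on the Per, Cry, Nr1d1 and Nr1d2 genes and the genes of the PAR bZIP factors Dbp, Tef and Hlf. PER and CRY proteins then inhibit BMAL1 and CLOCK, while REV-ERB proteins compete with ROR receptors at ROR elements and repress Bmal1, Clock, Npas2, Cry1 and Nfil3. In liver the transcripts of this loop swing strongly over the day, with Bmal1 and Npas2 in a phase nearly opposite to Nr1d1, and REV-ERBα is also known for its hold on lipid and bile acid genes.

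Promoter sequences can be searched for the motifs of these factors, and 4 of the stretches with a match are printed. They come from RefSeq (GRCr8), where upstream stretches of 250 bases were searched on both strands for the E-box CACGTG and for TAGGTCA, the core of a ROR element. Each match is printed in capitals with up to 40 bases on each side.
Bmal1, chr1:176766272-176766327, plus strand: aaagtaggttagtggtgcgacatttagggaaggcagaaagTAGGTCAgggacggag
Nr1d1, chr10:84229600-84229685, minus strand: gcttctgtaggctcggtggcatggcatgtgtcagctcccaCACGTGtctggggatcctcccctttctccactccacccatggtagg
Tef, chr7:115206589-115206674, plus strand: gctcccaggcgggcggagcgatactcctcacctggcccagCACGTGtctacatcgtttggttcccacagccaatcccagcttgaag
Bhlhe41, chr4:180569358-180569443, minus strand: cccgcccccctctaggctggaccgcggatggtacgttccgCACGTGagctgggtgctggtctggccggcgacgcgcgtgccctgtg

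The ROR element core of Bmal1 begins 16 bases before its transcription start, and the E-boxes of Nr1d1, Tef and Bhlhe41 begin 191, 198 and 48 bases before a start. The Nr1d1 stretch lies upstream of the more downstream of its 2 starts in RefSeq. Of all 27457 genes with promoters listed there, 6.18% hold the E-box in at least 1 promoter and 2.47% the ROR element core. Of Nr1d1 and the 25 called genes named below, 21 were in the table, and the E-box was found in 5 of them (Nr1d1, Tef, Bhlhe41, Slc16a1 and Dnaaf9) and the ROR element core in 1 (Bmal1). Per3, Dbp, Nr1d2 and Cry2 were not among the genes with a match, though some of them may be missing from the table. A D-box, TTANGTAA, the site of the PAR bZIP factors, occurs in 2.19% of all genes and was found in 0 of the 21. These are matches of letters in a window and say nothing of binding.

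Nr1d1 itself, the gene that chose the sides, ran over a wide range. On the highest side it lay between 7.93 and 8.69 with a median of 8.12 and a mean of 8.20 ± 0.26 (SD, n = 12), and on the lowest side between 4.57 and 6.74 with a median of 6.16 and a mean of 6.08 ± 0.59 (SD, n = 12). All values are log2 expression, so that 1 unit corresponds to a 2-fold change in level. The ranking fixes that these ranges do not overlap, so the difference of 2.12 is a description. At the edges the sides touch the other arrays: the last array of the highest side and the next in rank both had 7.93, and the array above the lowest side had 6.79 against 6.74 for its first member. The 22 arrays on neither side averaged 7.36 ± 0.31 (SD).

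**Figure D1:**
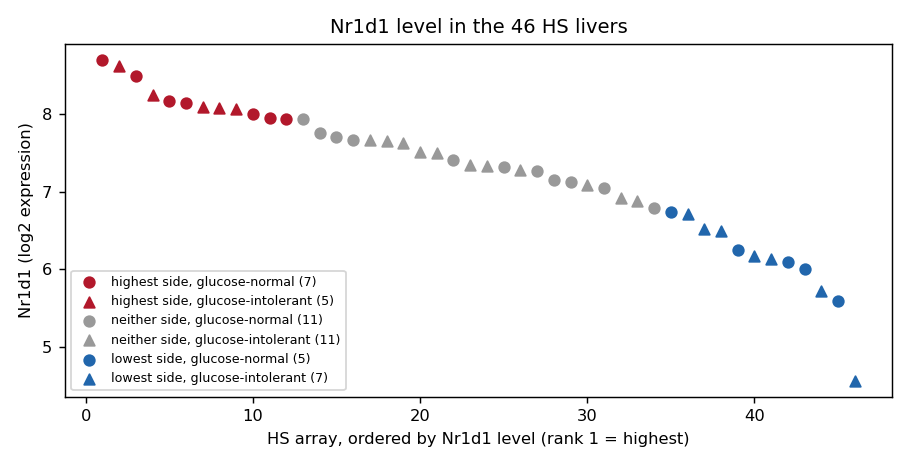
Nr1d1 level (log2 expression, vertical axis) of the 46 HS livers in order of rank (horizontal axis), with the highest 12 in red, the lowest 12 in blue and the other 22 in grey, circles for glucose-normal and triangles for glucose-intolerant rats. The level falls evenly from 8.69 through the middle arrays and then more steeply to 4.57, and circles and triangles are mixed along it.

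The glucose groups were spread over both sides. The highest side held 5 glucose-intolerant and 7 glucose-normal rats, the lowest side 7 and 5, and the arrays between them 11 and 11. The split of the sides did not pass Fisher's exact test (two-sided, p = 0.684). Over all HS rats Nr1d1 averaged 7.14 ± 0.92 in the intolerant and 7.36 ± 0.82 in the normal group (SD, n = 23 each), a difference of -0.22 (permutation test with 100000 resamples, two-sided, p = 0.407).

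The arrays of both sides had a like scale and high levels of hepatocyte transcripts. Array medians averaged 5.37 ± 0.02 (SD) and interquartile ranges 3.49 and 3.46 on the highest and lowest side. The hepatocyte gene Alb, for albumin, averaged 14.94 on both, and the summed level of 8 hepatocyte markers ran from 16.78 to 16.88 on the highest and from 16.80 to 16.88 on the lowest side (log2 of the sum of linear values). Scores on the first principal component of the HS arrays were 2.12 ± 19.76 on the highest and -9.64 ± 9.67 on the lowest side (SD), with HS39 and HS18 of the highest side at 45.75 and 34.71. That component carries 17.9% of the variance, and its part in the results below was not tested beyond the fits that include it as a covariate or leave out those 2 arrays. In bulk RNA, fewer cells of a type and less RNA per cell cannot be told apart.

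Across the other genes, livers with high Nr1d1 had more of the clock transcripts Per3, Dbp, Tef, Nr1d2, Bhlhe41 and Cry2 and less Bmal1, and beyond the clock the named genes were of mixed function. The limma test, with p-values adjusted by the Benjamini-Hochberg method over all probe sets, called 113 of the other 31041 probe sets (0.364%), 75 higher (0.242%) and 38 lower (0.122%) on the highest side. P-values measure the spread between these arrays, 1 per rat. Of the called probe sets 77 carried a single gene symbol, 1 several and 35 none, and their absolute differences ran from 0.21 to 2.58 with a median of 0.46, 10 of them at 1 or more. At 1 probe set per gene, the one of highest mean over all arrays, 61 of 14216 genes were called (0.429%), 43 higher (0.302%) and 18 lower (0.127%). After quantile normalisation the count was 43 probe sets, 23 higher and 20 lower.

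The whole range of a gene was separated between the sides in few cases. For 6 genes (0.0422% of those tested) the 12 highest arrays did not overlap with the 12 lowest: Per3, Dbp, Tns2 and Ifrd2, which were higher, and Bmal1 and Clpx, which were lower. Of these, Ifrd2, which encodes an interferon-related developmental regulator, lies outside the rule for named genes and was chosen after its values were seen (0.43, limma, adjusted p = 9.4e-05).

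Clock genes known to follow Nr1d1 were the group with the most calls. Of 12 listed genes 11 were measured, all 11 had the higher mean on the highest side, 6 were called and the median difference was 0.77, against 0.01 over all genes. Over all 14216 genes 7790 had the higher mean and 43 (0.302%) were called higher. The list was chosen with results of these data known.

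Among the repressors of the loop, Per3, a period gene, separated the sides most clearly. It ran from 5.88 to 7.89 on the highest side with a median of 6.80, and from 4.19 to 5.24 on the lowest side with a median of 4.72. Every liver of the highest side lay above every liver of the lowest. The difference was 2.05 ± 0.20 (SE, limma, adjusted p = 2.15e-06). Levels of the lowest side lie below the array medians, so the size of this difference is uncertain. A second, dim Per3 probe set differed by 0.04.

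Per2, another period gene, averaged 7.78 ± 0.78 on the highest and 7.01 ± 0.52 on the lowest side (SD, n = 12 each), a difference of 0.77 that was not called (limma, adjusted p = 0.18). The lowest side held 1 liver at 8.43, which only 2 livers of the highest side exceeded. Per1, the remaining period gene, differed by 0.13 (limma, adjusted p = 0.843).

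Cry2, a cryptochrome that blocks BMAL1 and CLOCK, ran from 7.32 to 8.15 with a median of 7.98 on the highest side and from 7.35 to 7.76 with a median of 7.52 on the lowest. On the highest side 7 livers lay above all of the lowest side and 1 below all of it. The difference of 0.36 ± 0.08 (SE) passed the test narrowly (limma, adjusted p = 0.046) and was lost in 18 of 24 fits that each left out 1 array. A second, dimmer probe set of Cry2 differed by 0.05.

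The PAR bZIP factors bind D-boxes and pass the rhythm of the loop on to metabolic genes. Dbp had the largest difference of all: it ran from 6.18 to 9.91 with a median of 8.36 on the highest side and from 4.73 to 5.97 with a median of 5.62 on the lowest. The sides did not overlap, and the highest side was far more spread out (SD 1.26 against 0.37). The difference was 2.58 ± 0.35 (SE, limma, adjusted p = 0.000351).

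Tef ran from 7.60 to 8.99 with a median of 8.35 against 7.21 to 7.83 with a median of 7.59. In 11 of 12 livers of the highest side it exceeded all of the lowest side. The difference was 0.73 ± 0.11 (SE, limma, adjusted p = 0.00233), and a second probe set differed by 0.66 (limma, adjusted p = 0.0158). Hlf, the third member of the family, differed by 0.26 and was not called (limma, adjusted p = 0.329).

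Nr1d2 encodes REV-ERBβ, the paralogue of REV-ERBα. It ran from 8.71 to 9.71 with a median of 9.47 on the highest and from 7.44 to 8.92 with a median of 8.56 on the lowest side. All but 2 of the 12 livers of the highest side lay above every liver of the lowest. The difference was 0.94 ± 0.17 (SE, limma, adjusted p = 0.00673), and 2 more probe sets differed by 0.70 and 0.40 without being called (limma, adjusted p = 0.155 and 0.0505).

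Bhlhe41 and Bhlhe40 encode DEC2 and DEC1, basic helix-loop-helix repressors that compete at E-boxes. Bhlhe41 was near the floor of the arrays on the lowest side, between 2.95 and 3.50 with a median of 3.24, and ran from 3.05 to 5.76 with a median of 4.10 on the highest side. Its levels lie below the array medians on the lowest side and in most livers of the highest. The size of its difference, 1.17 ± 0.25 (SE, limma, adjusted p = 0.0283), is therefore uncertain. The call was lost when HS23 (adjusted p = 0.0521), HS15 (adjusted p = 0.0515), HS35 (adjusted p = 0.0508) or HS33 (adjusted p = 0.0502) was left out of limma's fit. Bhlhe40 differed by 0.67 and was not called (limma, adjusted p = 0.218).

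Usp2, a ubiquitin protease with strong daily swings in liver, differed by 0.80 and was not called (limma, adjusted p = 0.364). Its ranges were wide on both sides, from 7.06 to 9.72 on the highest and from 6.11 to 9.25 on the lowest.

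On the other arm of the loop, clock genes known to run against Nr1d1, most of them targets of REV-ERB repression, had the lower means where Nr1d1 was high. Of 8 listed genes 7 were measured, all 7 had the lower mean, 1 was called and the median difference was -0.34. Over all 14216 genes 6426 had the lower mean and 18 (0.127%) were called lower. The 7 include E2f8 and Bmal2, whose differences of -0.03 and -0.01 are too small to give a direction.

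Bmal1, the E-box activator whose promoter holds the ROR element core shown above, was the called one. It ran from 3.91 to 6.85 with a median of 6.05 on the highest side and from 6.99 to 7.70 with a median of 7.26 on the lowest. Every liver of the highest side lay below every liver of the lowest, and the spread was 0.88 against 0.22 (SD). The difference was -1.62 ± 0.24 (SE, limma, adjusted p = 0.00159). Some levels of the highest side lie below the array medians, which makes its size less certain.

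Npas2, which can replace CLOCK as the partner of BMAL1, had a difference nearly as large, -1.40 ± 0.34 (SE), without being called (limma, adjusted p = 0.0658). On the highest side 10 of 12 livers lay below all of the lowest side, but the levels there were scattered from 4.19 to 7.61, against 7.47 to 8.70 on the lowest. Clock averaged 8.24 ± 0.28 and 8.59 ± 0.10 (SD, n = 12 each) and missed the threshold (-0.34, limma, adjusted p = 0.0654), while a second, dimmer Clock probe set passed it (-0.38, limma, adjusted p = 0.0162). Npas2 and Clock both passed with all 46 arrays in the fit in 3 groups (adjusted p = 0.0232 and 0.0118, limma). Both also passed with the level of Nr1d1 as a continuous term (adjusted p = 0.0483 and 0.0372, limma). Of 17 alternative settings, these fits included, Npas2 was not called in 10 and Clock in 12.

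Cry1, the cryptochrome with a ROR element, averaged 6.24 ± 0.34 on the highest and 6.93 ± 0.68 on the lowest side (SD, n = 12 each), a difference of -0.69 that was not called (limma, adjusted p = 0.134). The sides overlapped widely, with 1 liver of the highest side below all of the lowest. With the level of Nr1d1 as a continuous term over all 46 arrays, however, the slope of Cry1 was -0.41 per unit of Nr1d1 and passed (limma, adjusted p = 0.000247). In the other 16 of 17 settings, the fit of all 46 arrays in 3 groups included (adjusted p = 0.0719, limma), Cry1 was not called. Nfil3, which represses at D-boxes, differed by -0.22 (limma, adjusted p = 0.728). E2f8 and Bmal2, both dim in these livers, differed by -0.03 and -0.01.

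**Figure D2:**
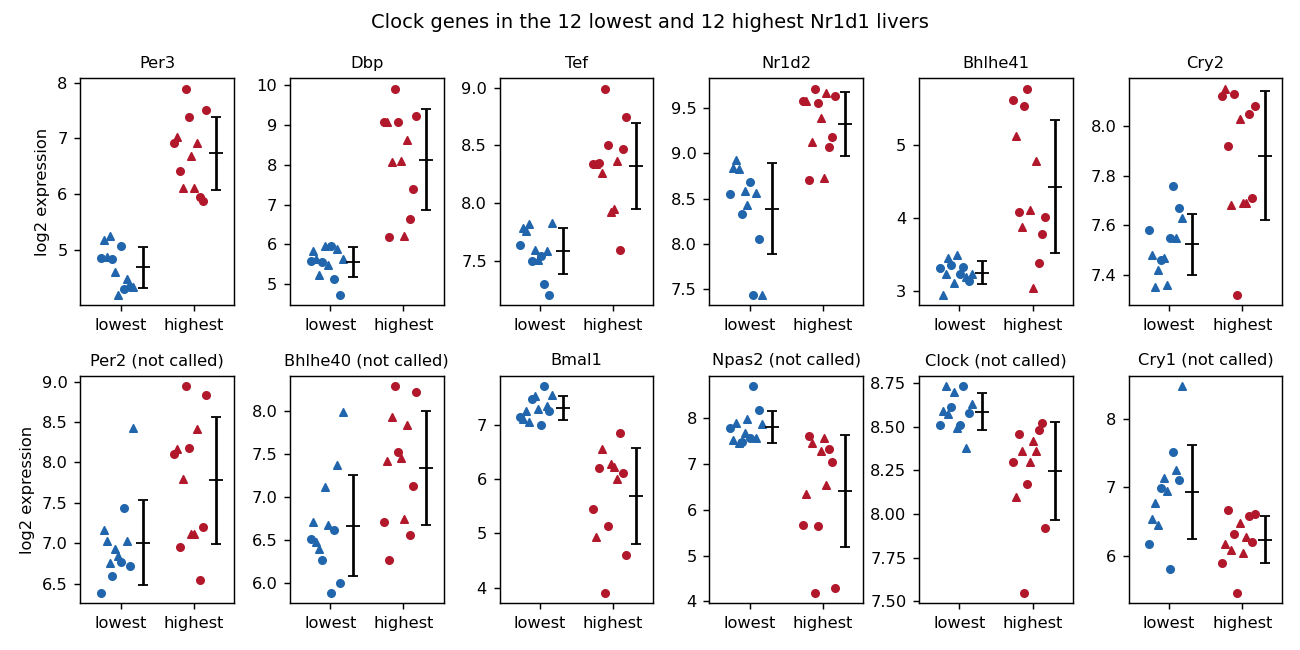
Log2 expression (vertical axes) of 12 clock genes in each liver of the lowest (blue) and highest (red) Nr1d1 side, circles for glucose-normal and triangles for glucose-intolerant rats, with mean and SD (n = 12). Per3, Dbp and Bmal1 separate the sides without overlap, and the highest side is the more scattered for Dbp, Bhlhe41, Bmal1 and Npas2.

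The remaining parts of the clock and its known liver outputs were less separated. None of 10 measured regulators of the loop was called by limma, while 6 had an unadjusted p under 0.05. The activator Rora, which opposes REV-ERB proteins at the same elements, differed by -0.61 (limma, adjusted p = 0.0956) and Ncor1, a corepressor that REV-ERB proteins recruit, by -0.18 (limma, adjusted p = 0.0841). With Nr1d1 as a continuous term over all 46 arrays, Rora (adjusted p = 0.028, limma) and Nrip1 (adjusted p = 0.0448, limma) of these regulators passed. The casein kinase Csnk1e differed by 0.14 (limma, adjusted p = 0.408) and Csnk1d by 0.00 (limma, adjusted p = 0.994). None of 25 measured output genes was called by limma at the gene's brightest probe set, and 7 had an unadjusted p under 0.05, against 2143 of all 14216 genes. Insig2, which holds back the lipogenic factor SREBP and is a known REV-ERBα target, differed by -0.71 (limma, adjusted p = 0.0765), while a second Insig2 probe set was called lower by -0.75 (limma, adjusted p = 0.0138). Cyp7a1, the rate-limiting enzyme of bile acid synthesis, differed by 0.63 (limma, adjusted p = 0.493), and Por, the electron donor of cytochromes P450, by 0.77 (limma, adjusted p = 0.137).

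Outside the clock lists, the 12 called genes of largest positive difference included Hsd17b2, Gpr146, Tns2, Tbc1d10a, Jade1, Slc25a10 and Ccn1 beside the clock genes. Hsd17b2, which oxidises estradiol and testosterone to weaker steroids, ran from 9.93 to 13.16 with a median of 12.24 on the highest side and from 8.87 to 11.33 with a median of 10.40 on the lowest. In 10 of 12 livers of the highest side it exceeded all of the lowest. It differed by 1.67 ± 0.31 (SE, limma, adjusted p = 0.0133).

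Gpr146, a receptor linked to hepatic lipoprotein output, ran from 7.51 to 8.82 against 6.99 to 7.86 and differed by 0.78 (limma, adjusted p = 0.00625). A second Gpr146 probe set differed by 0.68 and was not called (limma, adjusted p = 0.0644). The 2 genes of smallest p after Per3 had small but tight differences. Tns2, a tensin of focal adhesions, ran from 7.83 to 8.60 on the highest and from 7.16 to 7.60 on the lowest side and differed by 0.71 ± 0.08 (SE, limma, adjusted p = 1.01e-05). Tbc1d10a, which switches off small Rab GTPases, ran from 6.06 to 6.72 against 5.60 to 6.11 and differed by 0.59 (limma, adjusted p = 1.01e-05).

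Jade1, a subunit of histone acetyltransferase complexes, differed by 0.58 (limma, adjusted p = 0.00651). For Slc25a10, the mitochondrial dicarboxylate carrier, the difference was 0.56 (limma, adjusted p = 0.00804). Its second, dimmer probe set differed by 0.51 and was not called (limma, adjusted p = 0.0928). Ccn1, a matricellular protein induced early by growth signals, differed by 0.73 with adjusted p = 0.0428 in limma, a call lost in 17 of 24 fits that left out 1 array. The other 30 called genes of higher level differed by 0.22 to 0.56.

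Genes lower on the highest side included a mitochondrial chaperone, a tight junction protein and a growth factor responsive transcription factor. Clpx, the unfoldase of the mitochondrial ClpXP protease, ran from 9.58 to 10.81 with a median of 10.31 on the highest side and from 10.91 to 11.35 with a median of 11.05 on the lowest. The sides did not overlap, and the difference was -0.75 ± 0.10 (SE, limma, adjusted p = 0.000235).

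Cldn1, a claudin of tight junctions, ran from 6.41 to 8.37 with a median of 7.74 against a median of 8.60, with 10 of 12 livers of the highest side below all of the lowest, and differed by -1.01 ± 0.19 (SE, limma, adjusted p = 0.0133). All 3 of its probe sets were called, the other two both at -0.72. Tjp1, a scaffold protein of the same junctions, was called lower as well (-0.34, limma, adjusted p = 0.0138); it lies outside the rule for named genes and was chosen after its values were seen. Myc, a transcription factor of cell growth, ran from 5.83 to 8.13 against 7.09 to 8.54, with 8 of 12 livers of the highest side below all of the lowest, and differed by -1.06 ± 0.21 (SE, limma, adjusted p = 0.0226). The call of Myc was lost in 9 of 17 other settings, among them the level of Nr1d1 as a continuous term (adjusted p = 0.0853, limma).

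Metabolic genes among the named lower ones included Angptl4, Slc16a1 and Akr1c1. Outside the rule for named genes, a Pex11a probe set, not the brightest of its gene, was called lower (-0.88, limma, adjusted p = 0.0283). Angptl4, a fasting-induced inhibitor of lipoprotein lipase, ran from 9.07 to 10.50 against 10.27 to 11.07 and differed by -0.58 (limma, adjusted p = 0.0268). That call was lost without HS35 (adjusted p = 0.0508), HS33 (adjusted p = 0.0549) or HS30 (adjusted p = 0.0514) in limma's fit. Slc16a1, a carrier of lactate and ketone bodies, differed by -0.54 (limma, adjusted p = 0.0299). The aldo-keto reductase Akr1c1 differed by -0.69 (limma, adjusted p = 0.0316). Each call was lost in 8 of 24 fits. A second, dim probe set of Slc16a1 differed by -0.04 (limma, adjusted p = 0.865).

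The other genes named as lower were Tubb2a, a beta-tubulin (-1.08, adjusted p = 0.0373), Lgalsl, a galectin-like protein (-0.88, adjusted p = 0.015), the transmembrane proteins Tmem252 (-0.80, adjusted p = 0.0468) and Tmcc3 (-0.59, adjusted p = 0.0407), and Dnaaf9, a dynein assembly factor (-0.53, adjusted p = 0.00452), all by limma. Tubb2a, Tmcc3 and Tmem252 lost their calls in 13, 13 and 19 of 24 fits that left out 1 array. Second, dimmer probe sets of Tmcc3 and Dnaaf9 differed by -0.56 and -0.13 and were not called (limma, adjusted p = 0.0702 and 0.583). That of Lgalsl was called (-1.02, limma, adjusted p = 0.00452). Akr1c1 and Tubb2a belong to families of close copies, whose transcripts a probe set can mix. The lowest difference among all called probe sets, -1.64, belonged to a probe set with no gene symbol (limma, adjusted p = 0.0407).

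**Figure D3:**
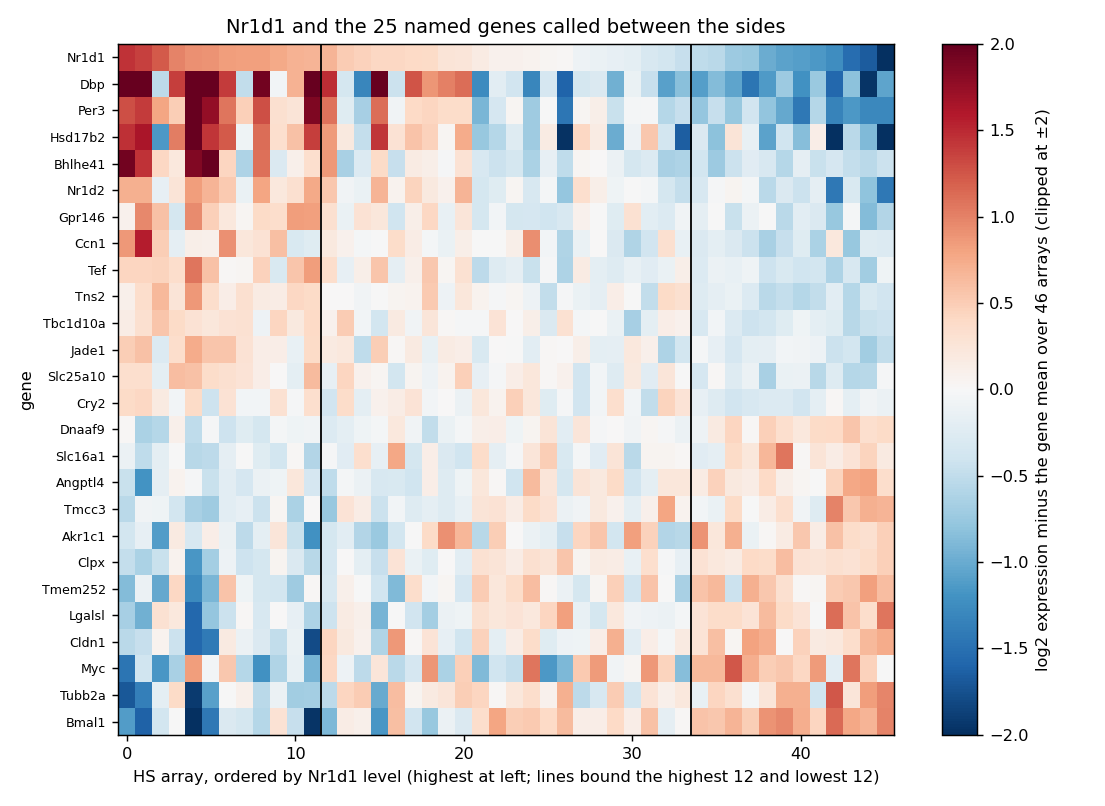
Nr1d1 and the 25 named genes called between the sides (rows) in the 46 HS livers ordered by Nr1d1 from highest to lowest (columns), coloured by log2 expression minus the gene's mean, clipped at 2 on either side of 0. Vertical lines bound the highest and lowest 12. Colours change from the left to the right block, deeply so for Dbp, Per3, Hsd17b2 and Bmal1, while the 22 livers between the lines are mixed.

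Thra, a thyroid hormone receptor gene, neighbours Nr1d1 and overlaps its end on the opposite strand in GRCr8. Its 3 probe sets differed by 0.06, -0.03 and -0.02 and none was called.

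The 31 gene lists used here give the rest of the liver's programme, and nearly all had 0 called members. Over all genes 61 of 14216 (0.429%) were called. At so low a share, 0 called says little about a list of this length. Of 15 measured glucocorticoid targets 1 was called, Angptl4, and the median difference was -0.19. In limma 7 of the 15 had an unadjusted p under 0.05, against 2143 of all 14216 genes. Their means were lower on the highest side for 10 and higher for 5, among them Klf9 (0.56, limma, adjusted p = 0.0544). Of 18 immediate early genes Ccn1 was called higher and Myc lower, with a median of 0.11, and 6 had an unadjusted p under 0.05 in limma. Heat shock and temperature-responsive genes had 0 of 14 called by limma, 4 with an unadjusted p under 0.05, and a median of 0.14. In this list 12 of 14 means were higher on the highest side, against 7790 of 14216 over all genes.

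Metabolic lists held 0 called genes at 1 probe set per gene: 21 genes of fatty acid synthesis (median 0.10), 16 of cholesterol synthesis (0.01), 19 of fat oxidation (0.00), 10 of glycolysis (0.05), 12 of gluconeogenesis and glycogen (0.09), 19 of insulin and IGF signalling (0.03), 17 of bile acid (0.00) and 24 of xenobiotic metabolism (-0.05). In limma 1 to 4 genes of each of these lists had an unadjusted p under 0.05, against 2143 of all 14216 genes. Among the genes of smallest p, Pfkl and Gpi of the glycolysis list differed by 0.37 and 0.25 (limma, adjusted p = 0.0647 and 0.0827). Plin2 of the fat oxidation list differed by -0.59 (limma, adjusted p = 0.0797). It passed with Nr1d1 as a continuous term over all 46 arrays (limma, adjusted p = 0.00541). Of 17 alternative settings, that fit included, Plin2 was not called in 14. Outside the rule for named genes, Pck1, the gluconeogenic carboxykinase, differed by 0.00, and Fasn, the fatty acid synthase, by 0.19 (limma, adjusted p = 0.85). The largest uncalled difference in a list of zones, 1.36, belonged to Sds, the serine dehydratase of periportal hepatocytes (limma, adjusted p = 0.0548). Sds passed with Nr1d1 as a continuous term over all 46 arrays (limma, adjusted p = 0.0122). Of 17 alternative settings, that fit included, Sds was not called in 12. Acute phase (16 genes), endoplasmic reticulum stress (18), oxidative phosphorylation (31), ribosomal protein (18) and proliferation genes (11) had medians between -0.05 and 0.07 and 0 called by limma, with 0 to 6 of each list at an unadjusted p under 0.05. Interferon response genes had 0 of 23 called by limma and 1 at an unadjusted p under 0.05 (median 0.02), although a second Stat2 probe set was called higher by 0.41 (limma, adjusted p = 0.0286).

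No marker of another cell type was called, where 0.429% of all genes were. Of 14 Kupffer cell and macrophage markers 11 had the lower mean on the highest side (6426 of 14216 over all genes), with a median of -0.07 and 0 called. Their summed level ran from 12.39 to 13.48 on the highest and from 12.76 to 13.71 on the lowest side (log2 of the sum). For 13 endothelial markers the summed level ran from 11.26 to 12.30 against 11.68 to 12.20, for 20 stellate cell and matrix markers from 11.96 to 12.50 against 11.91 to 12.52, and for 7 bile duct markers from 10.55 to 12.09 against 10.43 to 11.50. By limma 0 of these markers were called, with 0 to 5 of each list at an unadjusted p under 0.05, and 0 of 5 red blood cell and 13 lymphocyte and neutrophil markers on either count. The lymphocyte markers Cd3e (4.72 against 4.70) and Ms4a1 (4.19 against 4.32) lay below the array medians on both sides.

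**Figure D4:**
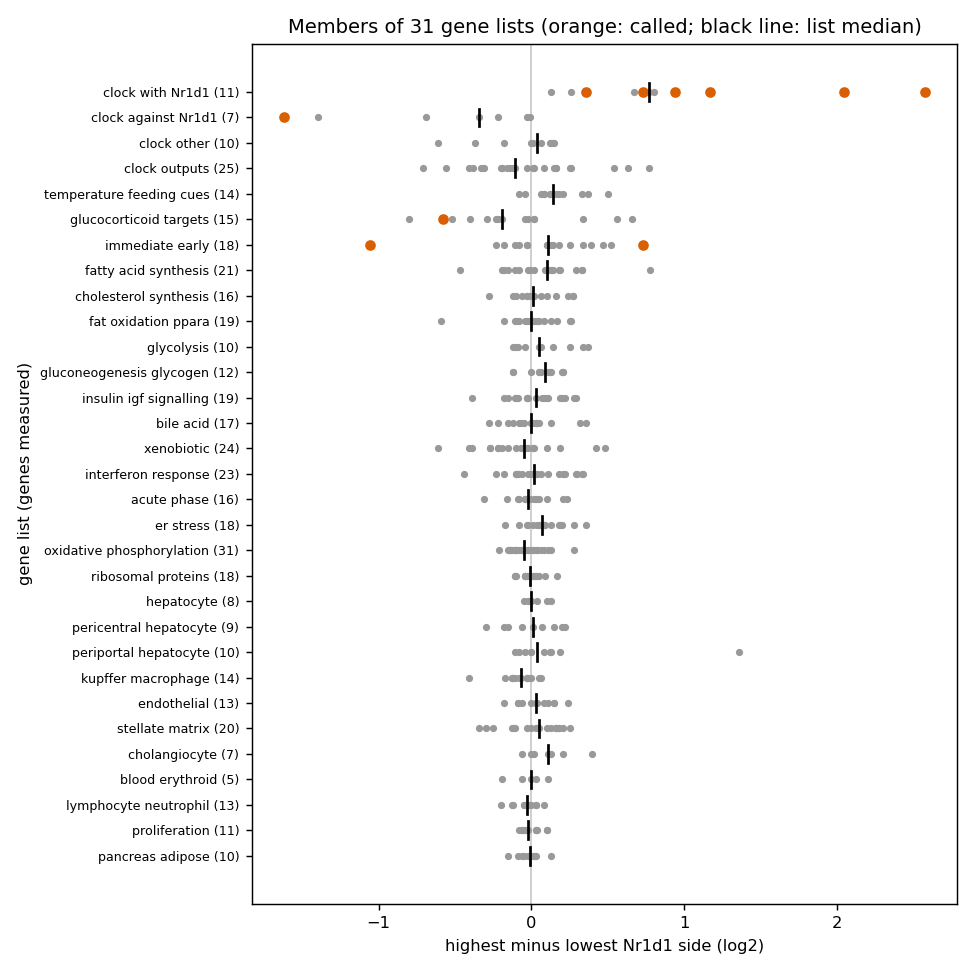
Difference between the highest and lowest Nr1d1 side (log2, horizontal axis) for each measured gene (dots) of 31 lists (rows), with called genes in orange and the list's median as a black line. Called genes sit in the rows of clock genes, of glucocorticoid targets and of immediate early genes, and the medians of the other rows lie near 0.

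The 22 livers on neither side, which the comparison did not use, span a narrower range of Nr1d1. The slope on Nr1d1 was called for 1 of 31041 probe sets (0.00322%), that of Rnf207, whose slope was -0.62 per unit of Nr1d1 (limma, adjusted p = 0.00606) but whose sides differed by 0.02. Without adjustment 1578 probe sets (5.08%) had a p under 0.05. Of the 113 probe sets called between the sides, 70 (61.9%) had a slope of the same sign in the middle livers, against 44.3% of all probe sets, and 17 (15%) also had an unadjusted p under 0.05, against 2.18% of all.

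Clock genes called between the sides, other than Cry2, had slopes of the same direction in these livers, each without passing the adjusted test. The slope on Nr1d1 was 1.73 ± 0.58 (SE, unadjusted p = 0.00655 in limma) for Dbp, 0.86 for Per3 (p = 0.0274, limma), 0.59 for Nr1d2 (p = 0.0114, limma), 0.62 for Bhlhe41 (p = 0.0113, limma) and 0.40 for Tef (p = 0.0498, limma). Bmal1 had a slope of -0.73 (p = 0.0276, limma). Of the uncalled members of the 2 clock lists, Cry1 had a slope of -0.59 (p = 0.0174, limma) and Bhlhe40 of 0.91 (p = 0.0345, limma). The others had an unadjusted p over 0.05 in limma, and the slope of Per1 (-0.19, p = 0.657, limma) was opposite to its side difference. Adjusted over all probe sets in limma, Cry1, Bhlhe40 and each called clock gene just listed had p = 0.923. Beyond the clock, Hsd17b2 had a slope of 1.27 (p = 0.0128, limma), Tmcc3 of -0.55 (p = 0.00734, limma) and Angptl4 of -0.44 (p = 0.0309, limma). Cry2 (-0.07), Cldn1 (0.09) and Slc16a1 (0.06) had slopes of the opposite sign, and Tns2 a slope of 0.05.

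**Figure D5:**
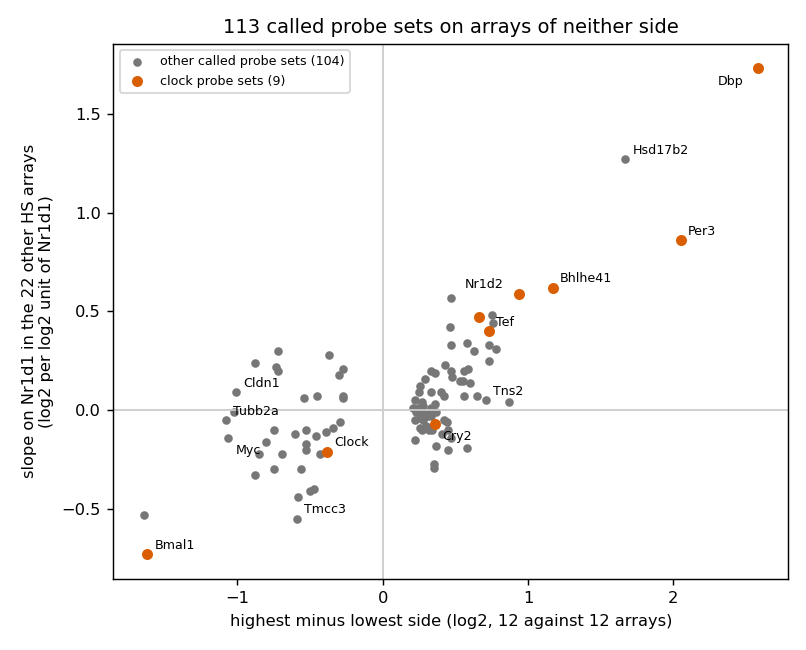
Slope on Nr1d1 among the 22 HS livers on neither side (vertical axis, log2 per log2 unit of Nr1d1) against the difference between the sides (horizontal axis, log2) for the 113 called probe sets, 9 of clock genes in orange and 104 others in grey. Dbp, Hsd17b2 and Per3 lie far to the upper right and Bmal1 to the lower left, while Cldn1 and many small differences have slopes near 0.

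Within each glucose group the called clock genes differed in the same direction between the sides. They were called on the same arrays that were split here, so the shared direction is a description and not a separate test. For Per3, Dbp and Bmal1, whose sides did not overlap, any split of these arrays must give the same sign. Per3 differed by 2.17 ± 0.32 among normal and 1.88 ± 0.21 among intolerant rats, Dbp by 2.82 ± 0.58 and 2.35 ± 0.36, and Bmal1 by -1.84 ± 0.40 and -1.31 ± 0.21 (SE). Some estimates were further apart, as for Npas2 (-1.98 ± 0.56 and -0.67 ± 0.20) and Usp2 (1.71 ± 0.47 and 0.01 ± 0.39), and the uncalled Per1 (0.46 and -0.22) and Bmal2 (0.07 and -0.08) had opposite signs. No probe set was called in the test of that difference, the interaction of Nr1d1 level and glucose group over all 46 arrays: limma called 0 of 31041 (0%) at a smallest adjusted p of 1, and 1188 (3.83%) had an unadjusted p under 0.05. With 7 against 5 normal rats alone limma called 1 probe set, Tbc1d10a, and with 5 against 7 intolerant rats alone 3, those of Per3, Hes6 and a second probe set of Jade1.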

How the data were processed

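The authors deposited log2 expression values of 31042 probe sets in 58 arrays, from 1.86 to 14.97, with array medians from 5.33 to 5.39. Partek is named in the submitters' processing notes, with no version, and the sources used here do not give background correction, summarisation or normalisation. Glucose groups were read from titles and descriptions. Gene symbols came from GEO's platform annotation: 20826 had 1 symbol, 436 several and 9780 none, and 14167 of 14217 genes were found in RefSeq (GRCr8). A gene is represented by its probe set of highest mean over all arrays.

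Arrays were ranked by Nr1d1, and the sides compared with limma 3.58.1 (lmFit, eBayes) in R 4.3.3 on the values as deposited, without a filter, two-sided, adjusted by Benjamini-Hochberg over all probe sets; called means adjusted p under 0.05. The slope on Nr1d1 in the other 22 arrays and its interaction with glucose group were fitted likewise. The scripts were tested on simulated data. The number of arrays limits the precision.

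The members, gene lists and tests were chosen with earlier results of these data known. Named genes were all called members and all members of the 2 clock lists that follow or oppose Nr1d1, the 12 highest and 12 lowest called genes, and up to 4 called members, or 2 of smallest p, of the other lists, a selection of which is printed. Some uncalled list members outside this rule are also printed as values. Genes most like Nr1d1 were the 10 of largest absolute Pearson r over the 22 middle arrays. Alternatives covered the number of arrays a side, the arrays in the fit, covariates, scaling, a filter on dim probe sets, the variance model, array weights and leaving out each array. Ranking by another Nr1d1 probe set could not be run, since only 1 carries Nr1d1 as its single symbol.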

Additional observations from a re-analysis of the deposited data

How the results depend on the processing

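The count of 113 called probe sets stayed within 1.5 times with all arrays in 3 groups (152), with Nr1d1 as a continuous term (127), with glucose group as a covariate (83), with arrays centred (113), with 1 probe set per gene (83), with trend and robust variance (109) and with array weights (122). It moved further with 8 arrays a side (40) or 16 (34), in glucose-normal (1) or glucose-intolerant arrays alone (3), which have fewer arrays, after quantile normalisation (43), among brighter probe sets only (208) and with a covariate for the first component of the residuals (1098), and beyond the numbers of arrays and probe sets the cause was not tested. Leaving out 1 array gave 68 to 196, with HS30 (68), HS33 (71), HS35 (71), HS15 (75), HS20 (187) and HS28 (196) moving it by over 1.5 times. Chosen after seeing the data, a fit with the first component of all HS arrays gave 76, leaving out HS39 and HS18 gave 71, and leaving out the 3 arrays of lowest Nr1d1 gave 28. Under these last, Per3, Dbp, Tef, Nr1d2 and Bmal1 kept their calls. Of the 25 called named genes 0 reversed under any alternative run, 16 were called in all 24 fits without 1 array, and 9 lost the call in 1 or more. Each of the 25 lost its call in at least 1 of the other 17 settings (16 for the dim Bhlhe41), Per3 and Tbc1d10a in 1, Dbp, Tef, Nr1d2, Bmal1, Tns2, Clpx and Dnaaf9 in 2, Gpr146 and Jade1 in 3, Hsd17b2, Bhlhe41, Lgalsl and Slc25a10 in 4, Angptl4 and Cldn1 in 6, Slc16a1, Tubb2a and Tmcc3 in 7, Myc and Ccn1 in 9, Akr1c1 and Tmem252 in 11 and Cry2 in 12. With 8 arrays a side both sides held 4 intolerant rats (a difference of 0, Fisher's exact test p = 1), and with 16 the highest side held 5 and the lowest 9 (p = 0.285, exact). The 1 probe set called in the middle arrays became 0 among brighter probe sets and 0 after quantile normalisation. The interaction stayed at 0. No paired analysis was possible because the rats carry unique numbers, so the sides and glucose groups share none.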

Other observations

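In the inbred strains, whose arrays entered no comparison above, Nr1d1 fell into low and high levels by strain. It was 4.20 and 4.81 in the ACI arrays and 4.39 and 4.32 in the M520 arrays, near or below the lowest HS liver (4.57), and between 7.05 and 8.42 in the arrays of BN, BUF, F344 and WKY. The lowest strain mean of Per3 (3.87), Tef (7.19), Nr1d2 (7.06) and Gpr146 (6.81) was that of M520, and the lowest of Dbp (4.84) and Tns2 (7.03) that of ACI. ACI had the highest strain mean of Bmal1 (7.82), Clock (8.81) and Clpx (11.29), and M520 that of Cry1 (8.10) and Myc (8.41). Other genes had their extremes in strains of high Nr1d1: Bhlhe41 (3.09) and Jade1 (8.91) were lowest in F344 and Tbc1d10a (5.81) in WKY, while Npas2 (8.63) and Tubb2a (11.34) were highest in BUF, Cldn1 (8.85) in F344 and Angptl4 (10.78) in WKY. With 2 arrays per strain these are values without a test.

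At 1 probe set per gene, the genes whose levels followed Nr1d1 most closely among the 22 livers on neither side were none of the listed clock genes. By Pearson's r they were Jakmip2 (-0.73), Tmem160 (-0.73), Eif2s3 (0.72), Prr13 (-0.71), Kctd1 (0.69), Slco1b2 (0.69), Stim2 (0.68), Sdk2 (-0.68), Ghrh (-0.67) and Thumpd1 (-0.67). None of the 10 was called between the sides, where they differed by -0.18 to 0.23, and Dbp had r = 0.52 in the same 22 livers. The dim Rnf207 probe set of the report, not the brightest of its gene, had r = -0.86. These are the extremes of many genes on 22 arrays and are given as a description.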
